A study of Mus musculus with 15 samples.

Results

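Ago2 footprints of Sfpq-depleted cells were compared with and without a let-7a mimic, by asking which peaks and genes of the cells given the mimic also appeared in the cells without it. The peaks came from Ago2 HITS-CLIP, in which protein and RNA are crosslinked by ultraviolet light, Ago2 is immunoprecipitated and the RNA it held is sequenced. One condition was P19 cells transfected with siSfpq and mimic let-7a, called let-7a plus siSfpq. The other was P19 cells transfected with siSfpq and a control mimic, called siSfpq. P19 is a mouse embryonal carcinoma line with stem cell properties, so all libraries came from a single line, and all of these cells carried the Sfpq knockdown. Each condition had 3 libraries, which the study merged before peaks were called, so no value below has a replicate error. The p-values therefore compare the peaks of a list, not cultures, and peaks of a gene are not independent of each other.

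A let-7a plus siSfpq peak is a place where the dCLIP program scored more Ago2 in cells with let-7a and siSfpq than in cells with let-7a and a control siRNA, with a score above 7. A siSfpq peak is a place where pyicoclip counted more reads than background in siSfpq cells, with at least 10 reads. The header of the siSfpq table also names control siRNA cells, whereas the methods name siSfpq cells alone, and the table is read here as the methods describe it. Scores and read counts are different quantities from different programs, so only the presence of a peak was compared. A let-7a plus siSfpq peak that overlapped a siSfpq peak by 1 nt or more on the same strand was called shared, and otherwise let-7a-only. The name let-7a-only says where the peak was listed and does not say that let-7a was bound there, since neither list contrasts let-7a plus siSfpq cells with siSfpq cells directly. A siSfpq peak with no let-7a plus siSfpq peak on it was called siSfpq-only. The 2 lists held 39998 of the 75980 peaks in the 5 lists used, namely 10264 let-7a plus siSfpq peaks and 29734 siSfpq peaks.

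Ago2 is the Argonaute protein that carries a miRNA to its target mRNA, where pairing of the miRNA seed (bases 2 to 8) with a site, mostly in the 3'UTR, represses translation and shortens the life of the mRNA. Sfpq is a nuclear RNA-binding protein of paraspeckles. The let-7 family is scarce in pluripotent cells and rises as they differentiate, and Lin28a, Trim71, Igf2bp1 and Hmga2 are among its classical targets. Pluripotent mouse cells instead express the miR-302 family, which shares its seed with miR-290 members, and the miR-17 family, whose seed overlaps that of miR-302. Of 10 P19 markers, all had an Ago2 or Sfpq peak in at least one of the lists used. The let-7a plus siSfpq list held 8 of them and the siSfpq list 9, and Nanog had Sfpq peaks alone. Of 7 neural markers, 4 had a peak in any list used, and Dcx and Neurod1 were among those with none. The let-7a plus siSfpq list held 2 neural markers and the siSfpq list 3.

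The seeds that the comparison turned on are shown first, from RefSeq on GRCm38.p6, written 5′ to 3′ with bases 2 to 8 in capitals.
mmu-let-7a-5p (Mirlet7a-1, chr13:48538239-48538260, minus strand): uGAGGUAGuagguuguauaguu
mmu-miR-302b-3p (Mir302b, chr3:127545275-127545297, plus strand): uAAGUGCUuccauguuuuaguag
mmu-miR-17-5p (Mir17, chr14:115043684-115043706, plus strand): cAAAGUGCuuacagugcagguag
A 6 nt match to bases 2 to 7 is TACCTC for let-7, GCACTT for miR-302 and CACTTT for miR-17. The last pair overlap in GCACTTT, which holds both words.

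The highest-scoring 3'UTR peaks that hold TACCTC are shown as the 30 bases around the match, on the transcript strand of mm10, with the match in capitals. The first 4 lay in let-7a-only peaks.
Lin28a (chr4:134005188-134005217, minus strand, let-7a-only, score 53): tggagtgcacagcctgttgaacTACCTCat
Os9 (chr10:127095876-127095905, minus strand, let-7a-only, score 37): ccgaccccacctctccctatccTACCTCca
Pgap1 (chr1:54475652-54475681, minus strand, let-7a-only, score 18): aaagctgaatgaaactgtaagaTACCTCtg
Igf2bp1 (chr11:95961777-95961806, minus strand, let-7a-only, score 18): ggcagtgctgtgcgaagtaaacTACCTCaa
The next 4 lay in shared peaks.
Slc2a3 (chr6:122728374-122728403, minus strand, shared, score 160): gaggtctgaggttggaaggctcTACCTCac
Epha4 (chr1:77373689-77373718, minus strand, shared, score 120): gactcaaaactctcgaatagttTACCTCat
Slc2a3 (chr6:122728823-122728852, minus strand, shared, score 77): tcatagctaacttggattttgtTACCTCag
Scd2 (chr19:44306467-44306496, plus strand, shared, score 76): aactgggataatattcctgaccTACCTCca
The Lin28a, Os9, Igf2bp1 and Scd2 sites and the Slc2a3 site of the peak of score 160 read CTACCTC, a match to bases 2 to 8, and the other sites match bases 2 to 7 alone. Lin28a keeps let-7 precursors from being processed, and its peak was the highest-scoring let-7a-only 3'UTR peak with the word. Both Slc2a3 sites lay on a single siSfpq peak of 4131 reads.

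Of the 10264 let-7a plus siSfpq peaks, 5166 were shared (50.3%, 95% Wilson interval 49.4 to 51.3) and 5098 were let-7a-only. From the other list, 4274 of 29734 siSfpq peaks were shared (14.4%, 14.0 to 14.8) and 25460 were siSfpq-only. The shared peaks were mostly narrow dCLIP peaks inside broad pyicoclip peaks, since 4550 let-7a plus siSfpq peaks lay wholly within a siSfpq peak. A siSfpq peak held 1 let-7a plus siSfpq peak in 3630 cases and 2 or more in 644. The most, 12, lay on a 2313 nt siSfpq peak over the end of Slc2a3, the gene of a high-affinity glucose transporter. The siSfpq peaks covered more sequence in all, with 710265 bases under let-7a plus siSfpq peaks and 2611625 bases under siSfpq peaks.

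The location of a peak went with whether it was shared. Among the 5098 let-7a-only peaks, 1453 were 3'UTR peaks (28.5%, 27.3 to 29.8), and among the 5166 shared peaks 2222 were (43.0%, 41.7 to 44.4). The odds ratio was 0.53 (95% interval 0.49 to 0.57, two-sided Fisher's exact p = 3.1e-53). Put the other way, 60.5% of the 3675 let-7a plus siSfpq peaks in 3'UTRs were shared, as were 55.7% of the 2997 in coding or other exons and 62.1% of the 657 at transcript ends. In introns 22.5% of 808 peaks were shared, and between genes 22.7% of 1342 peaks. None of the 78 peaks on mitochondrial or unplaced sequence was shared, because the siSfpq list holds no peak there. Without them the 3'UTR odds ratio was 0.54.

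**Figure D1:**
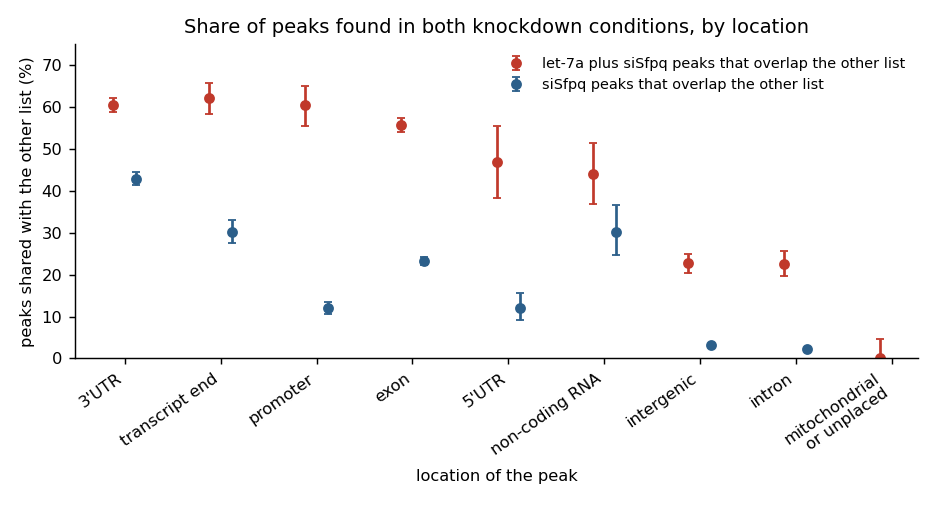
Share of let-7a plus siSfpq peaks that overlap a siSfpq peak (red) and of siSfpq peaks that overlap a let-7a plus siSfpq peak (blue), in percent on the y axis, by location of the peak on the x axis, with 95% Wilson intervals. In 3'UTRs the shares were 60.5% and 42.9%, and in introns 22.5% and 2.20%.

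The siSfpq list showed a wider gap by location. In 3'UTRs lay 2273 of 25460 siSfpq-only peaks (8.93%, 8.58 to 9.28) and 1708 of 4274 shared siSfpq peaks (40.0%, 38.5 to 41.4), an odds ratio of 0.15 (0.14 to 0.16), with a Fisher's exact p that the routine returned as 0. Of the 29734 siSfpq peaks, 15853 were 12 to 35 nt long, and 13 of these were shared (0.0820%). Introns held 6239 of them and intergenic sequence 7513, together 86.7%, whereas 121 (0.763%) lay in 3'UTRs. Of the 3228 siSfpq peaks longer than 200 nt, 1822 were shared (56.4%, 54.7 to 58.1) and 52.4% lay in 3'UTRs. Without peaks of 35 nt or less the odds ratio was 0.43, and with the rest stratified by length it was 0.70 (Mantel-Haenszel, 95% interval 0.64 to 0.76).

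The short siSfpq peaks also repeated certain words. TTCTACAG, their most frequent 8 nt word, occurred in 426 of 15849 stranded peaks of 35 nt or less (2.69%), against 37 of 13783 longer siSfpq peaks (0.268%) and 3 of 10186 let-7a plus siSfpq peaks. The next word that shared no 6 nt with it, TGGAATTC, occurred in 285 short peaks (1.80%), against 83 longer ones (0.602%). Both words are also found in the adapters of common small RNA library kits. None of the 711 short peaks with either word was shared. The part of adapter sequence in the short peaks was not tested, and leaving out every siSfpq peak with either word left the odds ratio at 0.15.

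Whether a peak was shared also went with its strength. Among let-7a plus siSfpq peaks with scores of 8 to 11, 34.5% of 2496 were shared, rising bin by bin to 63.9% of the 2014 peaks with scores of 21 or more. In 3'UTRs the range was wider, with 41.1% of 863 peaks at scores of 8 to 11 and 85.1% of 650 peaks at scores of 21 or more. Only 97 let-7a-only 3'UTR peaks scored over 20. The median score was 12 in let-7a-only 3'UTR peaks and 15 in shared ones, and the median length 55 nt and 65 nt. In the siSfpq list, 10.5% of 286 3'UTR peaks with 11 or 12 reads were shared, and 90.0% of 389 with more than 100 reads. A read count is a total over the peak, and the median length there was 240 nt in shared and 147 nt in siSfpq-only 3'UTR peaks. Reads and length were therefore not told apart. Reads below the minimum were not used here, so let-7a-only means without a siSfpq peak above that minimum.

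**Figure D2:**
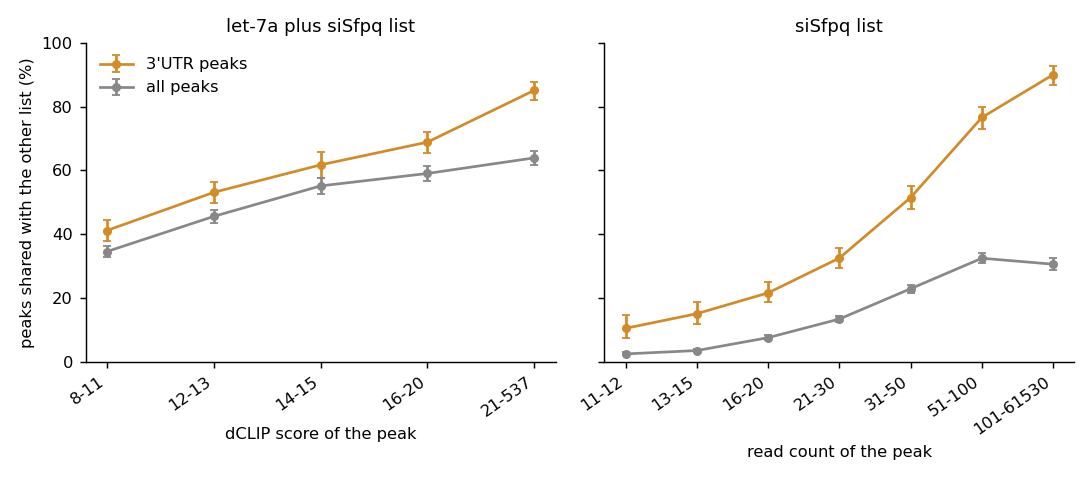
Percentage of peaks shared with the other list (y axis) by dCLIP score of let-7a plus siSfpq peaks (left) and by read count of siSfpq peaks (right), for 3'UTR peaks (orange) and all peaks (grey), with 95% Wilson intervals. In 3'UTRs the share went up with each bin, to 85.1% on the left and 90.0% on the right, while over all siSfpq peaks it stopped at 32.4% for 51 to 100 reads and was 30.6% above.

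With siSfpq peaks of any length and location counted, a let-7a-only peak was seldom on a gene without a siSfpq peak. Of the 5098, 3475 (68.2%) lay on a gene with a siSfpq peak elsewhere, 507 (9.95%) on a gene without one and 1116 on no gene. In 3'UTRs, 1333 of 1453 (91.7%, 90.2 to 93.0) lay on a gene with a siSfpq peak elsewhere. The short siSfpq peaks, most of them in introns or between genes, were kept here. These shares were not recomputed without them, so how far they rest on the short peaks was not tested. The nearest siSfpq peak on the same strand was a median of 428 nt away for let-7a-only 3'UTR peaks, within 100 nt for 258 of them and beyond 5000 nt for 240. Of 1616 genes with a let-7a plus siSfpq 3'UTR peak, 680 (42.1%) had all such peaks shared, 416 (25.7%) had both kinds, and 520 (32.2%) had none shared. Among those 520, 201 had a siSfpq 3'UTR peak at another place and 319 had none.

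Counted by gene, the overlap was larger, but the rule is looser, since any peak of a gene in each list counts. The siSfpq peaks of 35 nt or less were kept in these gene counts, which were not repeated without them. By the symbols in the files, 2762 of 3178 let-7a plus siSfpq genes were also siSfpq genes and 416 were found with let-7a only. The 2 tables name some genes by different annotation versions, for example Tmem194 and Nemp1 for the same gene. With each symbol brought to its current RefSeq form, 2765 of 3178 genes were in both (87.0%) and 413 with let-7a only. The shared genes were 31.3% of the 8824 siSfpq genes. Of the 9237 genes in either list, 29.9% were in both, 4.47% with let-7a only and 65.6% with siSfpq only. Counting 3'UTR peaks alone, 1276 of 1616 let-7a plus siSfpq genes were in both (79.0%). Current symbols are used below.

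Lin28a had the most let-7a-only 3'UTR peaks among the let-7 targets. Its 3'UTR (chr4:134003330-134006107, minus strand, 2778 nt) carried 15 let-7a plus siSfpq peaks, of which 12 were let-7a-only, and a single siSfpq peak. From its start towards its end, the 12 let-7a-only peaks scored 16, 21, 25, 16, 26, 53, 36, 159, 58, 27, 34 and 13. The 3 shared peaks, at 2254 to 2578 nt from the 3'UTR start, scored 10, 71 and 18. They lay on the siSfpq peak of 436 reads, which spanned 2275 to 2765 nt. All let-7a-only peaks thus lay upstream of the only stretch with a siSfpq peak, and the peak of 159 was the highest-scoring let-7a-only peak of any 3'UTR. The let-7 word occurred at 913 to 918 nt, inside the peak of 53, and at 1551 to 1556 nt, upstream of the peak of 159, which started at 1574 nt. A control Ago2 peak of 24 reads spanned 1094 to 1314 nt and so covered the let-7a-only peak of 36. The control Ago2 list is for P19 cells without knockdown or mimic, and the study's methods cite an earlier report for it. Of 4 Ago2-let-7a peaks, which mark more Ago2 with let-7a than with a control mimic in cells that kept Sfpq, the one of score 11 spanned 1394 to 1573 nt and held the second let-7 word. Peaks of the Sfpq list, which mark Sfpq binding in control siRNA cells over siSfpq cells without let-7a, covered most of the 3'UTR.

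**Figure D3:**
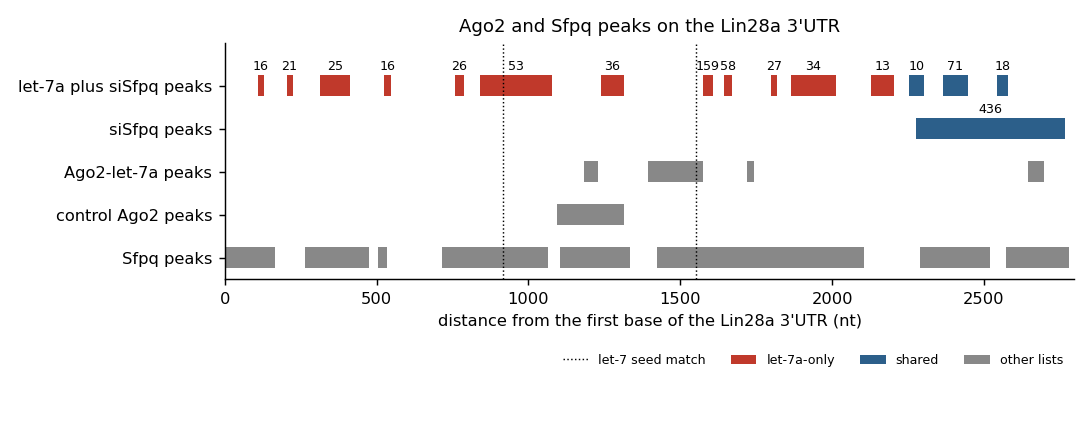
Peaks of 5 lists on the Lin28a 3'UTR, by distance from its first base in nt on the x axis, with a row for each list, let-7a-only peaks in red, shared peaks in blue, other lists in grey, and dCLIP scores or read counts above the peaks of the upper 2 rows. The 12 red peaks end by 2203 nt, and the siSfpq peak starts at 2275 nt. Dotted lines mark the 2 let-7 words.

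The other let-7 targets varied in how many of their let-7a plus siSfpq peaks lay on siSfpq peaks. Of the 33 let-7 targets listed, 21 were in the let-7a plus siSfpq list and 27 in the siSfpq list. All 21 were in both, against 87.0% of all let-7a plus siSfpq genes, and 6 were in neither. In 3'UTRs, 55 of their 90 peaks were shared (61.1%), beside 60.5% of all 3'UTR peaks. Trim71, a ubiquitin ligase and let-7 target, had 7 3'UTR peaks, all shared, with scores of 17, 15, 21, 95, 28, 19 and 48. Its siSfpq 3'UTR peak held 342 reads, and outside the 3'UTR it had 4 let-7a-only peaks. Bach1, a heme-regulated transcriptional repressor, had 9 of 10 shared. Igf2bp1, an RNA-binding protein of oncofetal growth, had 16, of which 10 were shared. Its 6 let-7a-only peaks included the 4 nearest the stop codon, with scores of 24, 21, 18 and 20, and the TACCTC site printed above lay in the peak of 18.

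Igf1r, the receptor of insulin-like growth factor, had 5 of 8 3'UTR peaks shared and Ccnd2, a G1 cyclin, 4 of 7. Tgfbr1, a TGF-beta receptor, had 3 of 5 and Rictor, a subunit of the mTOR complex, 5 of 6. Nr6a1, a germ cell nuclear receptor, had 4 of 4. The chromatin protein gene Hmga2 had no let-7a plus siSfpq peak and 3 siSfpq peaks, none of them in the 3'UTR. Hic2, a transcriptional repressor, had a let-7a-only 3'UTR peak of score 10 and 4 siSfpq-only peaks of 25, 21, 35 and 12 reads, none of which the let-7a-only peak overlapped. Cdk6, a cell cycle kinase, and Plagl2, a zinc finger activator, each had a single let-7a-only 3'UTR peak, of scores 11 and 10. For Mycn, the let-7a-only 3'UTR peak of score 25 lay within a siSfpq peak of 66 reads that the table gives without a strand, and so could not count as shared. In all, 46 siSfpq peaks without a strand overlapped a let-7a plus siSfpq peak.

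The 14 genes that the study named for let-7a sites were all in both lists, and 53 of their 87 3'UTR peaks were shared (60.9%), beside 87.0% of all let-7a plus siSfpq genes and 60.5% of all 3'UTR peaks. The study chose these genes from the same libraries, so they are not independent. Lamp2, a lysosomal membrane protein, had 8 of 8 shared and Skil, a repressor of TGF-beta signalling, 10 of 12, whereas Bbx, an HMG-box protein, had 1 of 5 and Notch2, a Notch receptor, 5 of 8. The let-7a-only Bbx peaks scored 13, 13, 16 and 24. Dusp1, a phosphatase of MAP kinases, had a let-7a-only peak of score 9, and its siSfpq peak of 21 reads held the let-7 word but lay beside it. Among these genes, Atf6b and Dusp1 were the study's controls for let-7a sites that do not depend on Sfpq. The others, Lin28a and Igf2bp1 among them, were named for Ago2-let-7a peaks that the study found reduced on Sfpq knockdown. The let-7a plus siSfpq peaks counted here run the other way, with more Ago2 on knockdown.

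Genes of the let-7a plus siSfpq list without any siSfpq peak carried at most 3 3'UTR peaks each. The 10 with the most 3'UTR peaks were Wee1 with 3 and Igdcc4, Zfand5, Eif2s3x, Thbs1, H2-K1, Naf1, Slc7a11, Adat1 and Mettl2 with 2 each. Of 10 genes tied at 2, these 9 came first by highest score and then by symbol. Wee1, the kinase that holds back entry into mitosis, had scores of 15, 18 and 39. Its peak of 39 held a miR-302 match, here in capitals, and no let-7 word. With the next base the site reads GCACTTT, so it holds the miR-17 word too.
Wee1 (chr7:110142584-110142613, plus strand, let-7a-only, score 39): acacttgtatatccaactgggaGCACTTta
Igdcc4, an immunoglobulin-domain receptor, had scores of 27 and 13, and Zfand5, a zinc finger protein of protein turnover, 15 and 19. Slc7a11, the cystine transporter, had 14 and 14. Of the others, no peak scored above 16. Adat1, Igdcc4, Wee1 and Zfand5 were also in the Ago2-let-7a list, which contrasts let-7a with control cells, and Wee1 was in the control Ago2 list.

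The highest-scoring let-7a-only 3'UTR peaks were on genes that siSfpq cells also had. After the Lin28a peak of 159 came Cxcr4, a chemokine receptor, with 70, Mcl1, an anti-apoptotic Bcl2 relative, with 62, and 2 more Lin28a peaks with 58 and 53. Mcl1 resembled Lin28a in layout. Its first 8 3'UTR peaks were let-7a-only, with scores of 24, 24, 13, 13, 27, 62, 15 and 11, and the last, of score 23, was shared with its only siSfpq 3'UTR peak, of 106 reads. Prtg, a neural-tube immunoglobulin receptor, had 10 let-7a-only and 7 shared peaks.

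The genes with the most shared 3'UTR peaks were Il17rd and Peg10 with 15 each, Rlim with 13, Etnk1, Mlec and Slc38a1 with 12, Slc6a6 with 11, and Slc2a3, Plagl1 and Slc38a2 with 10. Of 7 genes tied at 10, these 3 had the highest-scoring shared peaks. All 15 Peg10 3'UTR peaks were shared, with scores of 15 to 138, and its siSfpq 3'UTR peaks held 820, 465 and 2715 reads. Over all locations Peg10 had 31 let-7a plus siSfpq peaks, of which 11 were let-7a-only. Peg10 is an imprinted gene derived from a retrotransposon. All 10 Slc2a3 3'UTR peaks were shared, with scores of 32 to 215. Il17rd, an inhibitor of FGF signalling, also had 6 let-7a-only peaks with scores of 10 to 23, 5 of them in a run between a pair of siSfpq peaks. The highest shared 3'UTR peaks were those of Slc2a3 with 215, 164 and 160, Prtg with 173 and Lefty1, a Nodal inhibitor, with 156.

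The 10 genes with the most siSfpq 3'UTR peaks and no let-7a plus siSfpq peak were Kirrel with 6, Mier3, Necap1, Pdk1, Sec63, Smim7 and Ubxn7 with 4, and Btg2, Cpsf7 and Nub1 with 3. Of 26 genes tied at 3, these 3 had the highest read counts in a 3'UTR peak. The absence of a let-7a plus siSfpq peak does not say that Ago2 was absent, since that list holds only differential calls. Kirrel, an adhesion protein of kidney filtration slits, had 15, 27, 17, 46, 24 and 11 reads, and the highest count of any siSfpq peak on the other 9 was 50, on Smim7. Across all genes the median was 46 reads in shared siSfpq 3'UTR peaks and 21 in siSfpq-only ones.

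Seed words were counted in the 3'UTR let-7a plus siSfpq peaks. TACCTC occurred in 27 of 1453 let-7a-only peaks (1.86%, 1.28 to 2.69) and 46 of 2222 shared peaks (2.07%, 1.56 to 2.75). The odds ratio was 0.90 (0.55 to 1.45, two-sided Fisher's exact p = 0.72), an interval that leaves room for a difference of either sign. The words lay in 27 and 44 genes. Per kb of peak sequence the word occurred 0.31 times in let-7a-only peaks and 0.25 times in shared peaks, against 0.21 times in annotated 3'UTRs as a whole. In tiled 3'UTR windows of the same median lengths, 1.08% of 55 nt windows and 1.28% of 65 nt windows held it. The match to bases 2 to 8, CTACCTC, was in 11 let-7a-only peaks (0.757%) and 17 shared peaks (0.765%).

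The words of the stem cell families were less frequent in let-7a-only peaks. GCACTT occurred in 63 let-7a-only peaks (4.34%, 3.40 to 5.51) and 179 shared peaks (8.06%, 7.0 to 9.26), an odds ratio of 0.52 (0.39 to 0.69, adjusted p = 4.5e-05 by Fisher's exact test over the 7 families). CACTTT occurred in 38 (2.62%) and 117 (5.27%), an odds ratio of 0.48 (0.33 to 0.70, adjusted p = 0.00025 by Fisher's exact test). Since GCACTTT holds both words, these results are not independent. Per kb, GCACTT occurred 0.69 times in let-7a-only peaks and 1.0 times in shared peaks, against 0.29 times in all annotated 3'UTRs, where 1.43% of 55 nt windows and 1.72% of 65 nt windows held it. Stratified by peak length, the Mantel-Haenszel odds ratio was 0.64 for GCACTT and 0.59 for CACTTT, and both still passed. At scores of 15 or more, neither family passed, with 30 of 417 let-7a-only and 117 of 1227 shared peaks holding GCACTT (odds ratio 0.74, adjusted p = 0.58 by Fisher's exact test). Stratified by score, GCACTT passed after adjustment (odds ratio 0.65) and CACTTT did not (0.62).
Lefty1 (chr1:180938192-180938221, plus strand, shared, score 156): tgttcactgcactgtatgcgaaGCACTTac
Etnk1 (chr6:143207331-143207360, plus strand, shared, score 121): agtcgtgatgcttgatcgataaGCACTTta
These are the GCACTT sites of the highest-scoring shared peaks, on siSfpq peaks of 2266 and 351 reads, and the Etnk1 site reads GCACTTT, the word of both families.

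The words of miR-92, miR-19, miR-15/16 and miR-130 did not differ past the threshold. Their odds ratios were 0.74, 0.81, 0.84 and 0.95, with adjusted p between 0.47 and 0.82 (Fisher's exact test), and their 95% intervals all included 1. The miR-19 and miR-130 words overlap in TTGCACT. For each of the 7 families the word was in a larger share of let-7a-only and of shared peaks than of 3'UTR windows of the matching median length. For miR-17 and miR-92 the interval of the let-7a-only share included that of the windows. The windows matched the median length alone, not the spread of peak lengths. Per kb, CACTTT occurred 0.43 times in let-7a-only and 0.64 times in shared peaks, against 0.42 times in all annotated 3'UTRs. The miR-92 word occurred 0.26 times in both kinds, against 0.23 times.

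**Figure D4:**
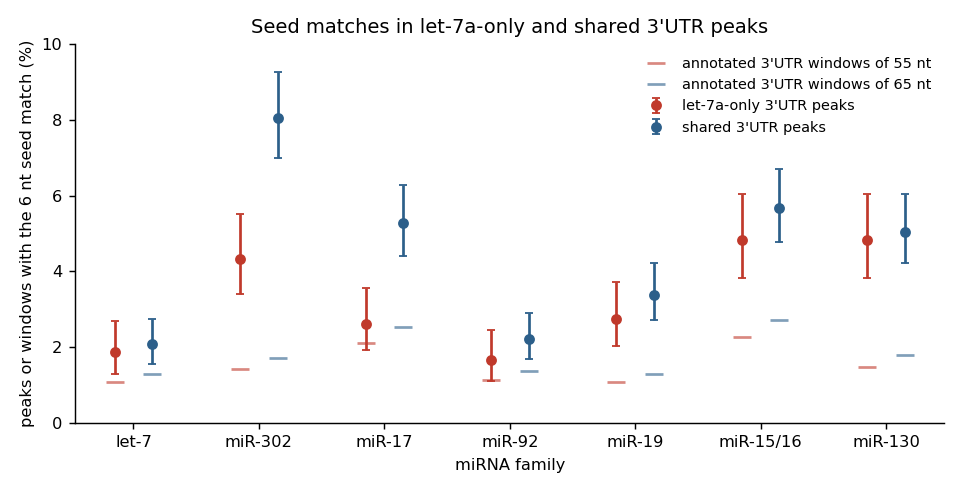
Percentage of 3'UTR let-7a plus siSfpq peaks with the 6 nt seed match (y axis) for 7 miRNA families (x axis), in let-7a-only (red) and shared (blue) peaks with 95% Wilson intervals, and in tiled windows of annotated 3'UTRs (dashes). For miR-302 the shares were 4.34% and 8.06%, and for let-7 1.86% and 2.07%.

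Sites bound by Sfpq in control cells were near most 3'UTR peaks of both kinds. The study mapped them by comparing Sfpq HITS-CLIP in control siRNA cells with siSfpq cells, both without let-7a. They do not show that Sfpq was bound in the knockdown cells compared here. A Sfpq HITS-CLIP peak lay within 500 nt of 1019 of 1453 let-7a-only peaks (70.1%, 67.7 to 72.4) and of 1742 of 2222 shared peaks (78.4%, 76.6 to 80.1). The odds ratio was 0.65 (0.56 to 0.75, two-sided Fisher's exact p = 1.8e-08), and at scores of 15 or more it was 0.82 (p = 0.15). Of these peaks, 589 let-7a-only and 1116 shared ones touched or overlapped the Sfpq peak itself.

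The other Ago2 lists touched shared peaks more often, given here as a description. Among 3'UTR peaks, 27 let-7a-only (1.86%) and 254 shared (11.4%) overlapped a control Ago2 peak. An Ago2-let-7a peak, stronger with let-7a than without it in cells that kept Sfpq, overlapped 5 let-7a-only peaks (0.344%) and 44 shared peaks (1.98%). Of the 2065 control Ago2 peaks themselves, 382 (18.5%) overlapped a let-7a plus siSfpq peak and 1579 (76.5%) a siSfpq peak. The control and siSfpq lists were called by the same program, whereas the let-7a plus siSfpq and Ago2-let-7a lists are differential calls that share the let-7a libraries. Those libraries are the higher side of the Ago2-let-7a contrast and the lower side of the let-7a plus siSfpq contrast. Low overlap between these lists is thus in part set by the design. No control Ago2 library is among the samples here, and the methods cite an earlier report for those peaks, so overlaps with them may cross experiments.

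In the remaining gene lists, the members of the let-7a plus siSfpq list are set against the siSfpq list, beside 87.0% of all let-7a plus siSfpq genes in both lists and 60.5% of all 3'UTR peaks shared. Of 22 targets reported for the stem cell miRNAs, 17 were in the let-7a plus siSfpq list and 16 of these in the siSfpq list. Mapk9, a stress kinase, was the exception, and 20 of the 41 3'UTR peaks on these targets were shared (48.8%). Mcl1, with 1 of 9 shared, was among them. Of 25 silencing factors, 16 were in the let-7a plus siSfpq list and all 16 were in both, and 43 of their 64 3'UTR peaks were shared (67.2%). Tnrc6b, the GW182-family partner of Ago2, had 10 of 14 shared and Ago2 itself 7 of 11. Of 18 pluripotency genes, 9 were in the let-7a plus siSfpq list, all 9 were in both, and 12 of their 31 3'UTR peaks were shared (38.7%). Lin28a gave 15 of those 31 peaks. Sall4, a zinc finger factor of pluripotency, had 5 let-7a-only 3'UTR peaks and 1 siSfpq peak outside the 3'UTR. Of 16 genes of Nodal and activin signalling, 10 were in the let-7a plus siSfpq list, all 10 were in both, and 18 of 20 3'UTR peaks were shared (90.0%), 10 of them on Skil and 3 on Tdgf1, the Nodal co-receptor. Of 13 neural genes, 6 were in the let-7a plus siSfpq list, 5 of these were in both, and Nes, an intermediate filament of progenitors, had a let-7a-only peak. Of the 18 3'UTR peaks on neural genes, 7 were shared (38.9%). Sox11 alone gave 14 of those 18 peaks and 6 of the shared ones. Of 12 paraspeckle genes, 8 were in the let-7a plus siSfpq list and all 8 in both, and 2 of their 4 3'UTR peaks were shared (50%). Neat1, the paraspeckle RNA, had 9 let-7a plus siSfpq peaks of which 1 was shared, and Malat1, another abundant nuclear RNA, had 17 of which 11 were shared. Sfpq, the knocked-down gene, had 10 let-7a plus siSfpq peaks, of which 2 were shared, and 5 siSfpq peaks. These files hold no measure of Sfpq level, so the knockdown was not checked here.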

How the data were processed

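Ago2 HITS-CLIP peak lists of P19 cells were analysed. The submitters' processing notes name cutadapt, STAR, Bowtie2 and mm10, without a version. Per the study's methods, the authors pooled the 3 libraries of a condition and only then called peaks. The deposited score of a let-7a plus siSfpq peak is the dCLIP value, filtered at 7. The deposited count of a siSfpq peak is its number of reads, filtered at 10. Library depth was not used, so depth behind a single value is known only as its score or reads.

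Coordinates were taken as inclusive. Overlap needed 1 nt on the same strand. Fisher's exact test, Woolf and Wilson 95% intervals, Mantel-Haenszel odds ratios over 4 length or score quartiles and Benjamini-Hochberg adjustment over 7 families used Python 3.11.15 with pandas 2.3.3, scipy 1.17.1 and statsmodels 0.14.6. Code was tested on simulated peaks. Intervals cover counting error only. Peak sequence came from GRCm38.p6 (mm10) and 3'UTR windows from GENCODE. Old symbols were updated through RefSeq names (136 symbols in the let-7a plus siSfpq list and 288 in the siSfpq list).

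Named genes were let-7 targets and genes the study named that had a 3'UTR peak, the 10 genes with most 3'UTR peaks in one list and none in the other, the 10 with most shared 3'UTR peaks, and those of the 5 highest-scoring 3'UTR peaks of each class. The members and lists were chosen with earlier results of these data known. Alternatives covered the overlap rule, strand, thresholds, peak length, 1 peak per gene and seed word.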

Additional observations from a re-analysis of the deposited data

How the results depend on the processing

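The 2 conditions were called by different programs from merged libraries, and the siSfpq list starts at a read minimum, so shares depend on both thresholds. The share of let-7a plus siSfpq peaks that was shared, 50.3%, was 43.9% with a Jaccard index of at least 0.1, 49.2% with overlap of at least 50 percent of the peak, 55.6% with a siSfpq peak within 100 nt, 60.9% at scores of 15 or more, and 44.8% and 25.7% at 20 and 50 reads or more. The share of siSfpq peaks, 14.4%, was 13.8%, 4.30%, 15.9%, 7.94%, 21.9% and 31.5% under these settings in the same order, and 30.7% without siSfpq peaks of 35 nt or less. Shared genes, 2762, numbered 1253 at 50 reads or more, 1496 at scores of 15 or more and 1274 from 3'UTR peaks alone. Genes with let-7a only, 416, numbered 829 at 20 reads or more, 1925 at 50 reads or more and 140 at scores of 15 or more. The 3'UTR odds ratios kept their direction and call under all 12 alternatives for let-7a-only peaks (0.39 to 0.72) and all 13 for siSfpq-only peaks (0.064 to 0.56 by a single choice, and 0.70 for short peaks left out with stratification).

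The let-7 odds ratio, 0.90, turned to 1.12 at scores of 15 or more, 1.13 stratified by length and 1.26 with peaks extended by 20 nt, and none passed. The miR-302 odds ratio fell short at scores of 15 or more (0.74), as did miR-17 there (0.51) and stratified by score (0.62). Of the 6 other families, 2 passed, 5 passed with the Jaccard rule, 0 at scores of 15 or more, where 1 passed without adjustment (miR-17, Fisher's exact p = 0.017), and 1 stratified by score. The odds ratio for a Sfpq peak within 500 nt was 0.82 (p = 0.15, Fisher's exact test) at scores of 15 or more, against 0.48 to 0.76 under the other alternatives. The cause was not tested. Stratification by score, current symbols and leaving out short peaks, words or contigs were chosen after seeing the data, as were all alternatives for the 6 other families. No paired analysis was possible because the libraries of each condition were merged before peaks were called, and for the same reason no replicate could be left out.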
